A study of Gallus gallus with 2 samples.

Results

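The genes that make or move the fast neurotransmitters, 5 in number, were followed through single-cell RNA counts of the embryonic chick cerebellum. They are GAD1, GAD2, SLC32A1, SLC6A5 and SLC17A6, chosen by name, and each has 1 entry among the 30108 genes of the gene table. All 5 had counts, but their depth differed widely: GAD2 had 48137 unique molecular identifiers (UMIs, 1 per captured transcript) in 7439 cells, GAD1 14626 in 5421, SLC17A6 8435 in 2893, SLC32A1 1586 in 1276 and SLC6A5 118 in 104 of the 15190 cells.

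Polyadenylated RNA was measured in cells of wild-type chick cerebella at embryonic days 6, 7, 8 and 9 (E6, E7, E8 and E9), from pooled tissue, with the Evercode WT Mini kit, which barcodes fixed cells over successive rounds of wells. The 2 sublibraries are technical splits of 1 batch of barcoded cells, and cells of a stage came from 3 of the 12 wells of the first round. Stages are therefore pools without stated replicate embryos, so no p-value is given, the SD over sublibraries (n = 2) is technical, and every interval covers counting error only. The tables held 2488, 7648, 2478 and 2576 cells at E6, E7, E8 and E9, at a median of 3025.5, 6047, 3310 and 3172 UMIs, and 896 cell barcodes occurred in both sublibraries.

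Inhibitory and excitatory neurons differ in these genes. GAD1 and GAD2 encode glutamate decarboxylases, which turn glutamate into GABA; SLC32A1 encodes VGAT, the transporter that loads GABA and glycine into synaptic vesicles; SLC6A5 encodes GlyT2, which takes glycine back into glycinergic terminals; and SLC17A6 encodes VGLUT2, which loads glutamate into vesicles. In the cerebellum, Purkinje cells and the interneurons of the PAX2 lineage use GABA, and many of these interneurons also glycine, whereas granule cells and the excitatory neurons of the nuclei use glutamate.

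The 5 genes lie on 4 chromosomes of the chicken build GRCg7b. GAD1 (ENSGALG00010023237) is on chromosome 7 from 17821412 to 17875521, GAD2 (ENSGALG00010005413) on chromosome 2 from 16175698 to 16208557 and SLC32A1 (ENSGALG00010023684) on chromosome 20 from 4011429 to 4017997. SLC6A5 (ENSGALG00010020232), on chromosome 5 from 2384609 to 2416481, and SLC17A6 (ENSGALG00010020328), from 2996694 to 3028042, share a chromosome and lie 580212 bases apart, with 5 annotated genes between them. Of the protein-coding ones, NELL1 stood at 564 CPM in PAX2-gated cells and 324 CPM in the excitatory gates, and ANO5 at 102 and 119 CPM. CPM here are UMIs of a gene per 1000000 UMIs of the cells summed, with no correction for gene length, so levels are compared between cells and not between genes.

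Cells were sorted into types by marker genes. A cell entered a gate if it had a UMI of the anchor gene and of at least 1 more gene of that type's marker list, and no UMI of another neuron anchor or of the anchors of endothelium (CDH5) and microglia (CSF1R). The gates held 3084 cells for SKOR2, a transcription factor of immature Purkinje cells, 1398 for PAX2, 179 for BARHL1 (granule lineage), 62 for TBR1 and 213 for LHX9 (both excitatory nuclear lineages), and 510 SOX2-gated radial cells. The BARHL1, TBR1 and LHX9 gates together are called the excitatory gates below and held 454 cells. Not all of their listed markers were higher inside. ETV1 stood at 25.7 CPM in the BARHL1 gate and 44.0 CPM outside it, and NEUROD6 at 21.5 and 30.4 CPM for the TBR1 gate. The others were higher inside, which the entry rule partly sets. MEIS1, on the BARHL1 list, was found in 69.2% of all cells, and POU4F1 and BARHL2 each in 0.47% of LHX9-gated cells. The 125 CDH5-gated endothelial and 60 CSF1R-gated microglial cells, 185 in all, should lack the 5 genes and gave the background. Gates on EOMES, SOX14, PTF1A and the haemoglobin gene HBA1 held under 50 cells each and were given no value.

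The SKOR2 gate was set beside the other Purkinje markers of its list and is named by its anchor because not all were higher inside it. A cell needed a UMI of at least 1 of them to enter, so higher levels inside are partly set by the rule. LHX1 stood at 140 CPM inside and 65.3 CPM outside it, LHX5 at 48.1 and 29.1 CPM, and RORA, found in 83.7% of all cells, at 2714 and 1544 CPM. CA8 at 8.34 and 9.97 CPM, PCP4 at 8.79 and 13.4 CPM and CALB1 at 0.18 and 0.33 CPM were not higher inside the gate. The gates left 9430 cells in no type, among them the 1724 cells with anchors of more than 1 neuron class. These ungated cells held 50.8% of the GAD1 UMIs, 49.9% of those of GAD2, 51.6% of those of SLC32A1, 61.9% of those of SLC6A5 and 73.3% of those of SLC17A6, so what follows describes the clearly marked part of each lineage.

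Both decarboxylase genes were several-fold higher in the PAX2 and SKOR2 gates than in the other gates of 50 or more cells, but over all stages together they differed in which of these held more. GAD1 stood at 283 CPM (exact 95% Poisson interval 272 to 295) in PAX2-gated cells, with 283 and 284 CPM in sublibraries 1 and 2, and at 199 CPM (194 to 205) in SKOR2-gated cells, with 196 and 202 CPM. At E6 alone GAD1 was lower in the PAX2 gate, at 155 CPM in PAX2-gated cells and 301 CPM in SKOR2-gated cells. GAD2 had the reverse order of the pooled GAD1 levels, 537 CPM (522 to 553) in PAX2-gated cells, with 547 and 528 CPM, and 816 CPM (805 to 828) in SKOR2-gated cells, with 834 and 800 CPM. The log2 ratio of PAX2-gated over SKOR2-gated cells was 0.51 for GAD1 (counting interval 0.43 to 0.58; 0.53 and 0.49 in the sublibraries) and −0.60 for GAD2 (−0.65 to −0.56; −0.61 and −0.60). Neither ratio reached 2-fold. Across the 11652 genes with 100 or more UMIs in these cells, 2.65% were at least 2-fold higher and 1.60% at least 2-fold lower in PAX2-gated cells. A further 1052 cells had UMIs of both SKOR2 and PAX2 and were in neither gate. The 878 of them without BARHL1, TBR1 and LHX9 had a median of 9410 UMIs. They held 217 CPM of GAD1 and 648 CPM of GAD2, between the levels of the 2 gates. The 2 ratios were not recomputed with such cells kept.

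**Figure D1:**
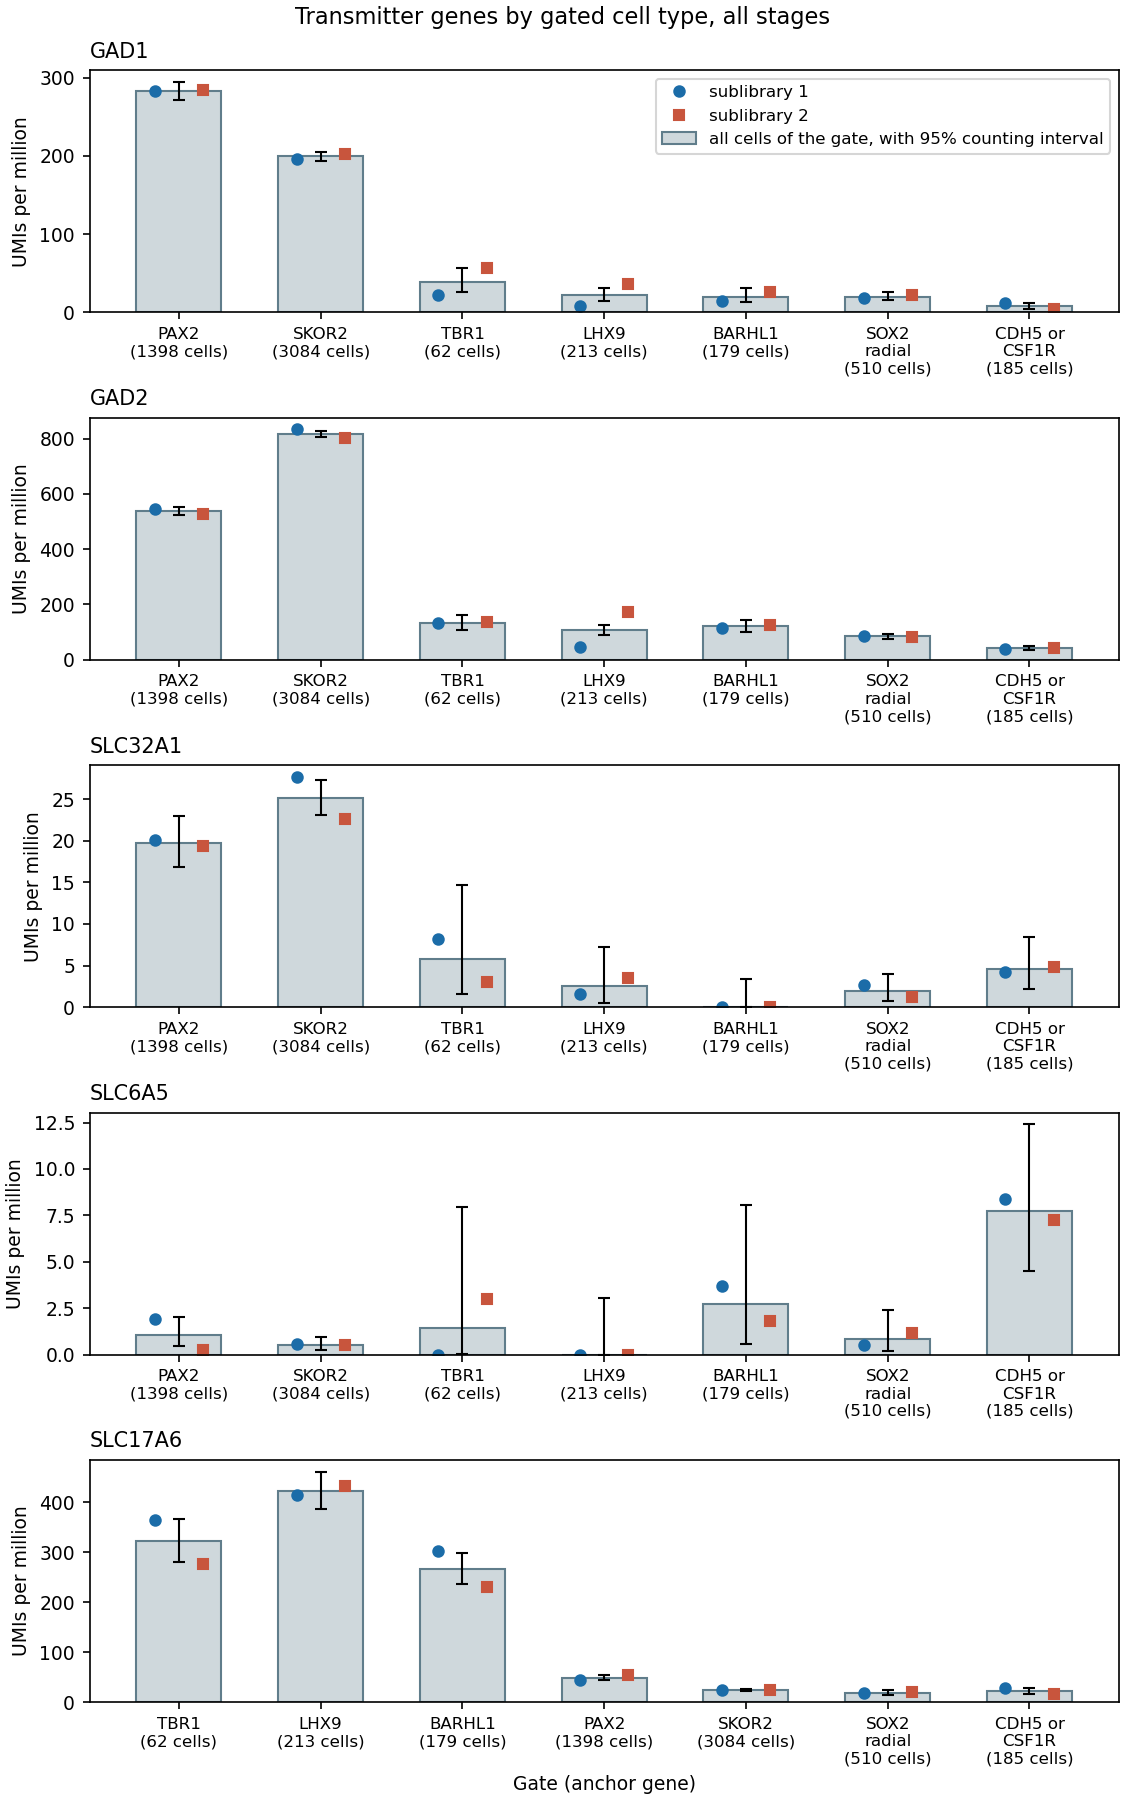
UMIs of each gene per 1000000 UMIs (vertical axes, linear and separate) in each gate over all stages. Bars are the sum over all cells of the gate with the exact 95% Poisson interval, and points are the sublibraries; GAD1 stands at 283 CPM in PAX2-gated cells and 199 in SKOR2-gated cells, GAD2 at 537 and 816, and SLC17A6 at 322, 423 and 267 in the TBR1, LHX9 and BARHL1 gates against 23.7 in the SKOR2 gate.

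In the excitatory gates GAD1 stood at 25.0 CPM (19.7 to 31.4), from 75 UMIs, with 13.6 and 37.2 CPM in sublibraries 1 and 2. GAD2 stood there at 118 CPM (106 to 131), with 91.3 and 147 CPM. The log2 ratio of SKOR2-gated over excitatory-gated cells was 2.99 for GAD1 (2.66 to 3.34), which was 3.85 in sublibrary 1 and 2.44 in sublibrary 2, and 2.79 for GAD2 (2.64 to 2.94), which was 3.19 and 2.45. The sublibraries had the same direction and differed in size by more than the counting interval. Across the 11090 genes with 100 or more UMIs in these cells, 4.24% were at least 2-fold higher and 5.38% at least 2-fold lower in SKOR2-gated cells, with a median log2 ratio of −0.05 over all of them. Of the 5 genes, GAD1, GAD2 and SLC32A1 were past 2-fold higher, SLC17A6 was past 2-fold lower, and SLC6A5 had too few UMIs to be counted. PAX2-gated over excitatory-gated cells gave the same 4 directions past 2-fold, at log2 ratios of 3.50 for GAD1, 2.19 for GAD2 and 3.08 for SLC32A1, where 2.72% of 9048 genes were higher and 2.77% lower by as much.

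The choices that moved these ratios most were the stages pooled and the treatment of cells with several anchors. Without the E7 cells, an alternative chosen after seeing the data, the log2 ratios were 4.48 for GAD1 and 3.61 for GAD2. When cells with the anchor of another class were kept in a gate, they were 0.87 and 0.97. The 683 cells with SKOR2 or PAX2 together with BARHL1, TBR1 or LHX9, which the gates leave out, had a median of 10254 UMIs. They held 131 CPM of GAD1, 446 CPM of GAD2 and 174 CPM of SLC17A6. These levels lay between those of the PAX2 and SKOR2 gates and those of the excitatory gates. Whether these cells were doublets was not tested, and no doublet caller was run.

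GAD2 in the excitatory gates was concentrated in a few cells and mostly at E7. It stood there at 70.5, 161, 4.64 and 48.8 CPM at E6, E7, E8 and E9, from 38, 295, 1 and 20 UMIs. At E6, 19 of the 38 UMIs were in 1 cell, and the sublibraries gave 12.7 and 152 CPM. Over all stages the 154 SKOR2-gated cells with most GAD2, of 3084, held 20.8% of its UMIs in that gate. The 23 excitatory-gated cells with most, of 454, held 68.6%, and the 9 background cells with most, of 185, held 67.0%. Such a share is larger where fewer cells have a UMI, and 2614 SKOR2-gated, 87 excitatory-gated and 32 background cells had 1 or more. The background was also highest at E7, with 14.3, 82.0, 10.1 and 36.5 CPM at E6, E7, E8 and E9. The ratio of the excitatory gates to the background over all stages was 1.51 on the log2 scale for GAD2 (1.17 to 1.86; 1.23 and 1.75 in the sublibraries) and 1.69 for GAD1 (0.92 to 2.54; 0.24 and 2.94). The GAD1 share of all GAD UMIs was 19.6% in SKOR2-gated cells, 17.5% in the excitatory gates and 15.7% in the background. The part of free RNA in these levels was not tested.

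SLC32A1, the vesicular GABA and glycine transporter, was also higher in the PAX2 and SKOR2 gates than in the excitatory gates, at a lower count. It stood at 19.7 CPM (16.9 to 22.9) in PAX2-gated cells, with 20.1 and 19.4 CPM in the sublibraries, and at 25.1 CPM (23.1 to 27.2) in SKOR2-gated cells, with 27.7 and 22.6 CPM. In the excitatory gates it had 7 UMIs, 2.34 CPM (0.94 to 4.81), and in the 179 BARHL1-gated cells 0 UMIs, which allows up to 2.75 CPM. The background held 10 UMIs, 4.56 CPM (2.19 to 8.39), so the excitatory gates did not exceed it, with a log2 ratio of −0.97 (−2.60 to 0.58). The log2 ratio of SKOR2-gated over excitatory-gated cells was 3.42 (2.37 to 4.75), with 3.42 and 3.45 in the sublibraries, and 1.13 when cells with another anchor were kept. The PAX2-gated over SKOR2-gated ratio was −0.35 (−0.60 to −0.10), a difference under 2-fold that had the same sign in both sublibraries (−0.46 and −0.23).

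SLC6A5, the glycine transporter of glycinergic neurons, was almost undetected, and the PAX2 gate did not hold more of it than the SKOR2 gate beyond counting error. It had 9 UMIs in PAX2-gated cells, 1.06 CPM (0.48 to 2.01), of which 8 came from sublibrary 1 and 1 from sublibrary 2. SKOR2-gated cells had 12 UMIs, 0.53 CPM (0.27 to 0.93), with 6 in each sublibrary. The log2 ratio of PAX2-gated over SKOR2-gated cells was 1.00 with a counting interval of −0.43 to 2.37, and it was 1.80 in sublibrary 1 and −1.15 in sublibrary 2, so no direction held. With gates read from thinned counts it was 2.49. LHX9-gated cells had 0 UMIs, which allows up to 2.49 CPM.

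The highest SLC6A5 level of any gate was in endothelial cells. CDH5-gated cells held 17 UMIs in 13 of 125 cells, 8.63 CPM (5.03 to 13.8), with 9.31 and 8.10 CPM in the sublibraries, and no cell had more than 3. CSF1R-gated cells had 0 UMIs among far fewer total counts, which allows up to 13.6 CPM. The median depth was 9152 UMIs in endothelial cells, 4577.5 in PAX2-gated and 5415.5 in SKOR2-gated cells. CPM are already scaled for that depth. After thinning every cell to 1000 UMIs 0 of 121 endothelial cells had a UMI, which allows a share of up to 2.48%. A level of 8.63 CPM gives few UMIs at that depth, so this 0 cannot decide whether endothelial cells held more. After thinning to 2000 UMIs, 2 of 115 endothelial cells had a UMI, 1.74% (0.21 to 6.14). The share was then 0.15% (0.02 to 0.55) in PAX2-gated and 0.20% (0.07 to 0.44) in SKOR2-gated cells, with intervals that overlapped. Unthinned shares, not matched for depth, were 10.4%, 0.50% and 0.32% in the same order. Of the 2 protein-coding genes between SLC6A5 and SLC17A6, ANO5 stood at 93.0 CPM in SKOR2-gated cells and 408 CPM in the background. NELL1 had the opposite order, at 442 CPM in SKOR2-gated cells and 58.9 CPM in the background. Whether reads of neighbouring genes entered the SLC6A5 counts was not tested. By stage, PAX2-gated cells had 1, 7, 0 and 1 SLC6A5 UMIs at E6, E7, E8 and E9, too few for a stage comparison: the E9 over E7 ratio of −0.50 has an interval of −5.99 to 2.46.

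SLC17A6, the vesicular glutamate transporter, was high in all 3 excitatory gates. It stood at 322 CPM (281 to 367) in TBR1-gated cells, with 364 and 276 CPM in the sublibraries, at 423 CPM (387 to 462) in LHX9-gated cells, with 415 and 433 CPM, and at 267 CPM (237 to 299) in BARHL1-gated cells, with 303 and 231 CPM. The order LHX9, TBR1, BARHL1 held in both sublibraries over all stages. At E7, the stage with 30 or more cells of all 3, TBR1-gated cells stood at 364 CPM (313 to 420). LHX9-gated cells stood there at 346 CPM (303 to 392) and BARHL1-gated cells at 261 CPM. The TBR1 and LHX9 intervals overlapped at E7, and the sublibraries had opposite orders. They gave 449 and 270 CPM in TBR1-gated cells and 287 and 405 CPM in LHX9-gated cells. LHX9 over BARHL1 gave a log2 ratio of 0.67 (0.45 to 0.88), TBR1 over LHX9 −0.39 (−0.63 to −0.17), and TBR1 over BARHL1, the neighbours that stood closest, 0.27 (0.01 to 0.53). These gates held different stages: 125 of 213 LHX9-gated cells were from E6, 46 of 62 TBR1-gated cells from E7, and 67 of 179 BARHL1-gated cells from E9.

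SLC17A6 was low in the SKOR2 gate. It stood at 343 CPM (322 to 364) in the excitatory gates together, with 363 and 321 CPM in the sublibraries, and at 23.7 CPM (21.7 to 25.8) in SKOR2-gated cells, with 23.5 and 23.9 CPM. The log2 ratio was 3.85 (3.70 to 4.01), and 3.95 and 3.75 in the sublibraries; 5.38% of the 11090 genes were at least 2-fold higher in that direction. With other anchors kept it was 2.13, and with the mean of single-cell CPM 4.59. Over all stages together, the level in SKOR2-gated cells was near that of the background, 21.9 CPM (16.1 to 29.0). The log2 ratio of SKOR2-gated cells over background was 0.11 (−0.31 to 0.57). By stage, SKOR2-gated cells stood above the background at E6, E7 and E8 and below it at E9, with overlapping intervals at each. At E7 they stood at 23.4 CPM (21.3 to 25.7), against 13.0 CPM (6.24 to 23.9), and at E9 at 16.1 CPM, against 42.6 CPM.

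PAX2-gated cells, in contrast, held more SLC17A6 than the SKOR2 gate. Their 48.8 CPM (44.3 to 53.8), with 44.3 and 53.2 CPM in the sublibraries, gave a log2 ratio over SKOR2-gated cells of 1.04 (0.85 to 1.23; 0.91 and 1.15), and SLC17A6 was the 1 gene of the 5 past 2-fold in that comparison, where 2.65% of all genes were higher by as much. The excess was largest at E6, as the stage values below show.

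The share of cells in which each gene was found was compared at equal depth. After thinning every cell to 1000 UMIs, GAD2 was found in 36.3% (exact 95% binomial interval 33.8 to 38.9) of PAX2-gated cells, 50.1% (48.3 to 51.9) of SKOR2-gated cells, 7.13% (4.93 to 9.91) of excitatory-gated cells and 5.59% (2.71 to 10.0) of the background. The unthinned shares were 66.0%, 84.8%, 19.2% and 17.3%, at median depths of 4577.5, 5415.5, 4926.5 and 4599 UMIs. GAD1 was found in 24.5%, 18.5%, 1.78% and 2.23% of thinned cells of these gates in the same order, and unthinned in 59.9%, 61.6%, 9.47% and 8.11%. Over all stages together, the GAD1 and GAD2 shares of excitatory-gated cells lay inside the intervals of the background, while their CPM lay above it. By stage, the CPM intervals of both genes lay apart from those of the background only at E7. The stage mixes differed: E7 gave 197 of the 454 excitatory-gated and 60 of the 185 background cells. Thinning left out 7, 5, 5 and 6 cells.

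For SLC17A6 the thinned share was 27.6% (23.5 to 32.0) in excitatory-gated cells, 4.03% (3.06 to 5.20) in PAX2-gated cells, 1.62% (1.21 to 2.14) in SKOR2-gated cells and 3.35% (1.24 to 7.15) in the background, and unthinned 65.4%, 11.6%, 6.91% and 11.4%. The PAX2 and SKOR2 shares lay inside the interval of the background. SLC32A1 was found in 1.65% (1.05 to 2.47) of PAX2-gated cells, 2.70% (2.15 to 3.33) of SKOR2-gated cells and 0 of 449 excitatory-gated cells, which allows up to 0.67%; in the background it was found in 0 of 179, which allows up to 1.68%. The unthinned SLC32A1 shares were 10.5%, 15.5%, 1.32% and 4.32%.

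GABA synthesis and glutamate transport were seldom found in the same cell. Of 14910 thinned cells of any kind, 32.9% had GAD1 or GAD2, 7.15% had SLC17A6, and 117 cells (0.78%, 0.65 to 0.94) had both, where independence of the shares would give 2.35%. A GAD UMI was found in 10.98% of the cells with SLC17A6 and in 34.6% of the cells without it. Within gates the same direction held at small numbers: 4.84% of the excitatory-gated cells with SLC17A6 had a GAD UMI, against 9.85% of those without; for PAX2-gated cells the shares were 28.6% and 49.7%, and for SKOR2-gated cells 42.0% and 60.4%. In all, 21 SKOR2-gated, 16 PAX2-gated and 6 excitatory-gated cells had both at this depth. What part doublets and free RNA had in them was not tested.

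**Figure D2:**
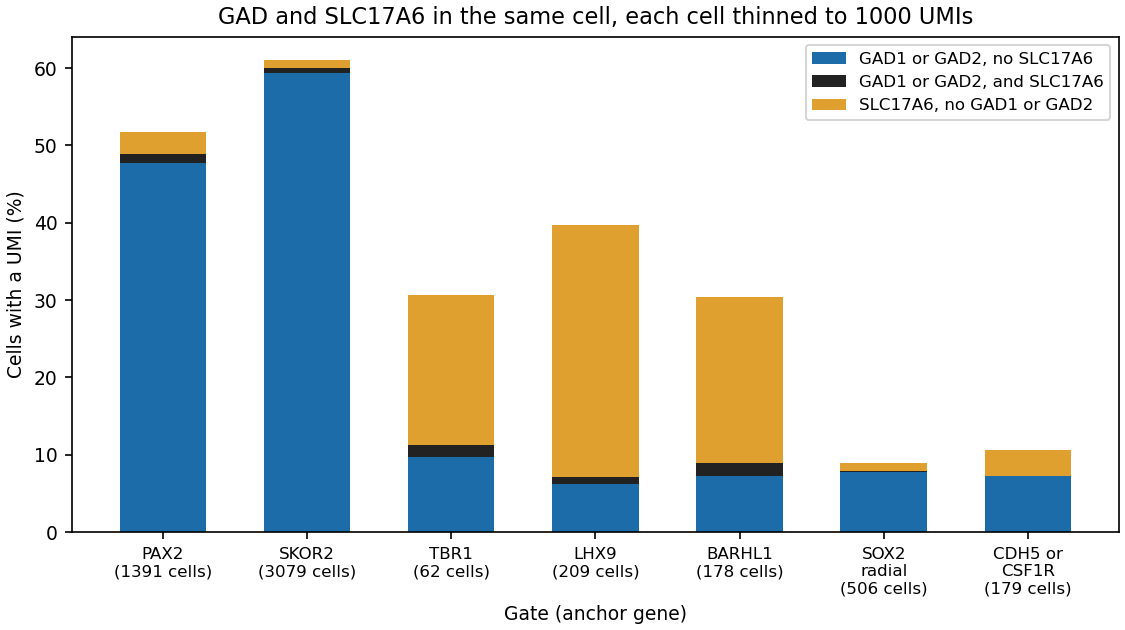
Share of cells (vertical axis, percent) with a UMI of GAD1 or GAD2, of SLC17A6, or of both, in each gate after thinning each cell to 1000 UMIs. The black segment, cells with both, is 1.15% of PAX2-gated and 0.68% of SKOR2-gated cells, and 0 of the 179 background cells at the right.

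GAD1 and GAD2 were found in the same cell more often than the product of their shares in the PAX2 gate, but not in the SKOR2 gate. Of the thinned PAX2-gated cells 11.9% (10.3 to 13.8) had both GAD1 and GAD2, and the product of the 2 shares was 8.90%. Of the SKOR2-gated cells 8.51% (7.55 to 9.55) had both, and the product was 9.26%. The product lay inside the interval in SKOR2-gated cells. The stage mix of a gate is shared by the 2 genes, so these are descriptions of the pooled cells.

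By stage, GAD1 was higher at E9 than at E6 in PAX2-gated cells and lower in SKOR2-gated cells. PAX2-gated cells had 155 CPM (interval 124 to 192) at E6, 278 CPM (264 to 292) at E7, 305 CPM (272 to 342) at E8 and 352 CPM (319 to 388) at E9. SKOR2-gated cells had 301 CPM (278 to 326), 194 CPM (187 to 200), 121 CPM (100.4 to 146) and 152 CPM (121 to 188) at the same stages. The well ranges, 3 splits of each pool, were 325 to 370 CPM at E9 and 125 to 175 CPM at E6 in PAX2-gated cells. In SKOR2-gated cells they were 117 to 183 CPM at E9 and 295 to 309 CPM at E6. SKOR2-gated cells numbered 525, 2241, 206 and 112 at E6, E7, E8 and E9. They made up 21.1%, 29.3%, 8.31% and 4.35% of the cells of these stages. PAX2-gated cells made up 4.54%, 9.86%, 9.77% and 11.2%. What part the change in these shares had in the GAD1 levels was not tested.

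The log2 ratio of E9 over E6 for GAD1 was 1.18 in PAX2-gated cells (0.84 to 1.54), with 1.24 and 1.14 in the sublibraries, and −0.99 in SKOR2-gated cells (−1.34 to −0.66), with −0.70 and −1.28. For PAX2-gated cells, 3222 genes reached 100 UMIs over these 2 stages, and of those 8.75% were at least 2-fold higher and 6.27% at least 2-fold lower at E9. GAD1 and GAD2 were past 2-fold higher and SLC17A6 past 2-fold lower. The make-up of the gate moved with stage: 63 of 289 cells at E9 had no UMI of the gate's markers TFAP2A and TFAP2B, against 44 of 113 at E6. In the cells with such a UMI GAD1 stood at 401 CPM at E9, against 236 CPM at E6, GAD2 at 582 CPM at E9, against 293 CPM at E6, and SLC17A6 at 53.1 CPM at E9, against 99.8 CPM at E6, all 3 differences under 2-fold. The part of this mix in the stage difference was not tested. Among 4027 such genes in SKOR2-gated cells 7.65% were at least 2-fold higher and 12.1% at least 2-fold lower, with a median of −0.21, and neither GAD1 nor GAD2 passed 2-fold. For E9 over E7 in PAX2-gated cells the ratio was 0.34 (0.18 to 0.50) for GAD1, −0.07 (−0.19 to 0.06) for GAD2 and −0.68 (−1.50 to 0.05) for SLC32A1, none past 2-fold, where 3.41% of 7543 genes were higher and 9.0% lower by as much. In SKOR2-gated cells the ratio was −0.64 (−0.76 to −0.51) for E7 over E6, −0.67 (−0.95 to −0.41) for E8 over E7 and 0.32 (−0.10 to 0.74) for E9 over E8.

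GAD2 was higher at every later stage than at E6 in both gates. PAX2-gated cells had 191 CPM (157 to 232), 563 (544 to 583), 579 (532 to 628) and 537 (496 to 581) at E6, E7, E8 and E9, and SKOR2-gated cells had 534 CPM (503 to 566), 853 (840 to 867), 759 (705 to 816) and 696 (629 to 769). The E7 over E6 ratio was 1.56 in PAX2-gated cells (1.28 to 1.85; 1.74 and 1.35 in the sublibraries) and 0.68 in SKOR2-gated cells (0.59 to 0.77; 0.65 and 0.70). From E6 to E9 it was 1.49 (1.19 to 1.80) and 0.38 (0.21 to 0.55). The SKOR2 value was 0.18 in sublibrary 1 alone and 0.56 in sublibrary 2 alone. E7 was the deepest stage and had the highest background GAD2 level, 82.0 CPM.

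**Figure D3:**
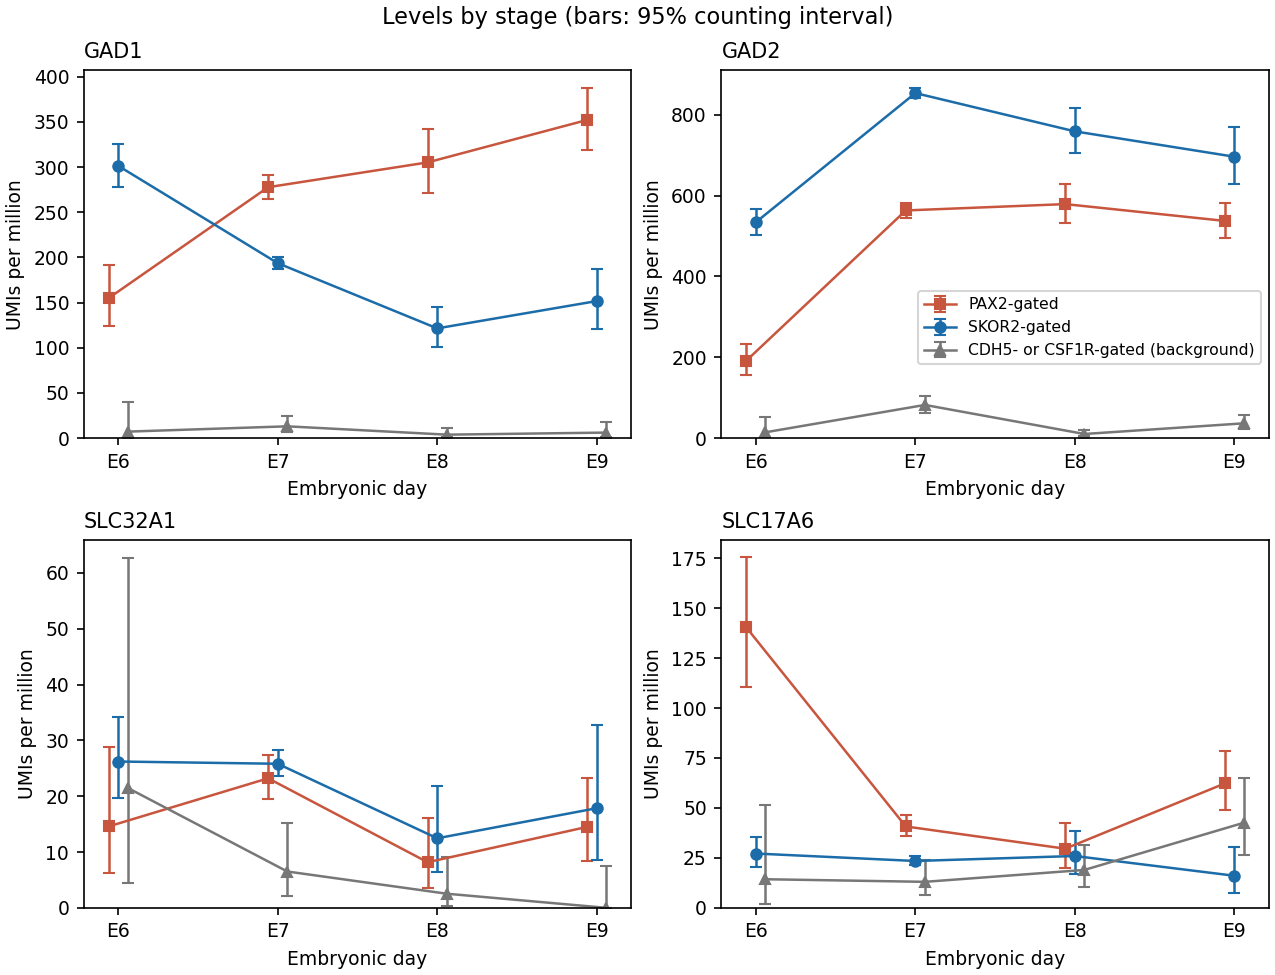
UMIs per 1000000 UMIs (vertical axes, linear) of GAD1, GAD2, SLC32A1 and SLC17A6 at E6 to E9 in PAX2-gated, SKOR2-gated and background cells, with exact 95% Poisson intervals. GAD1 lines cross between E6 and E7, from 155 CPM in PAX2-gated and 301 CPM in SKOR2-gated cells at E6, while GAD2 is higher at E7 than at E6 in both gates.

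The split between the 2 decarboxylase genes does not depend on the total used for scaling. GAD1 made up 44.7% of the GAD UMIs in PAX2-gated cells at E6 (exact 95% binomial interval 37.5 to 52.1), and 33.0% (31.7 to 34.4), 34.5% (31.4 to 37.8) and 39.6% (36.6 to 42.6) at the next 3 stages. In SKOR2-gated cells it made up 36.1% (33.8 to 38.4), 18.5% (18.0 to 19.0), 13.8% (11.6 to 16.3) and 17.9% (14.6 to 21.6). At E6 the SKOR2 wells ranged from 33.9% to 39.3%, and at the later stages no well exceeded 20.0%. At every stage the wells of the PAX2 gate, 30.2% and above, all lay over those of the SKOR2 gate at that stage. At E6 the PAX2 wells ranged from 41.0% to 50.8%. Cells in no gate had 35.5%, 23.0%, 20.0% and 26.1%, also highest at E6.

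**Figure D4:**
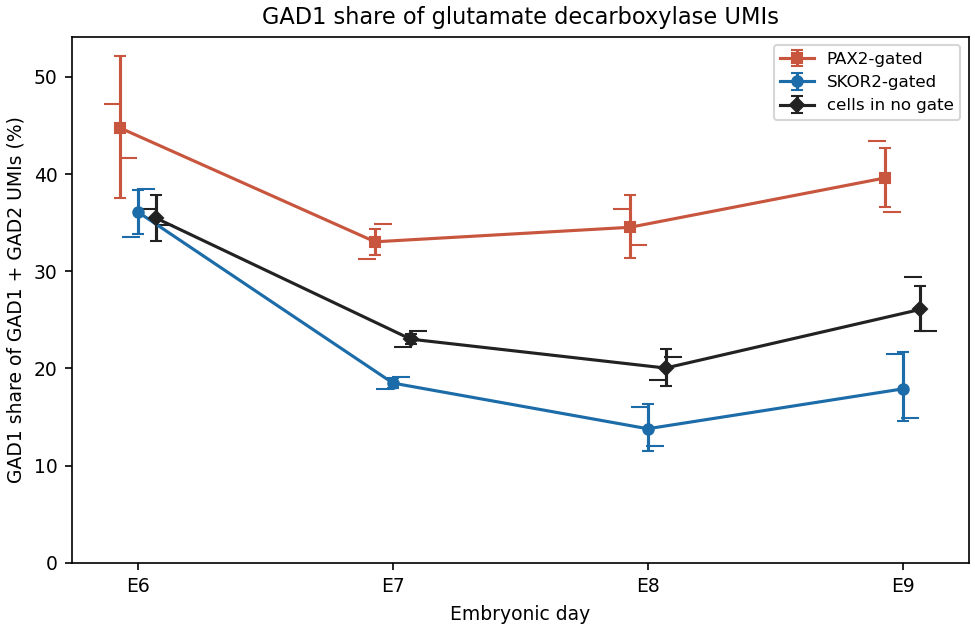
GAD1 as a percentage of GAD1 and GAD2 UMIs (vertical axis) at E6 to E9 in PAX2-gated, SKOR2-gated and ungated cells, with exact 95% binomial intervals; short dashes are the sublibraries. The PAX2 gate lies between 33.0% and 44.7% and the SKOR2 gate is at 36.1% at E6 and 18.5% at E7.

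SLC32A1 was too sparse for most stage differences. In PAX2-gated cells it stood at 14.6, 23.2, 8.17 and 14.5 CPM at E6, E7, E8 and E9, from 8, 135, 8 and 17 UMIs, and in SKOR2-gated cells at 26.2, 25.8, 12.5 and 17.8 CPM, from 54, 492, 12 and 10 UMIs. The E9 over E6 ratio in SKOR2-gated cells was −0.55 with an interval of −1.69 to 0.43, and 0.66 with gates read from thinned counts, so no direction held. The E8 over E7 ratio in these cells, −1.05 (−2.01 to −0.23; −0.71 and −1.55 in the sublibraries), was beyond counting error. At E6 the 19 background cells held 3 UMIs, 21.5 CPM with an interval of 4.43 to 62.8, which overlaps both gates.

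SLC17A6 was highest at E6 in the LHX9 and PAX2 gates. LHX9-gated cells stood at 346 CPM (303 to 392) at E7, against 569 CPM (502 to 643) at E6, a log2 ratio of E7 over E6 of −0.72 (−0.98 to −0.46), with −1.06 and −0.40 in the sublibraries. BARHL1-gated cells, too few at E6, stood at 261, 232 and 288 CPM at E7, E8 and E9, and the E9 over E7 ratio was 0.14 (−0.25 to 0.52), so no change was detectable at this depth. Of 1991 genes 3.67% were at least 2-fold higher and 5.68% at least 2-fold lower at E9 in that gate; GAD2 was among the lower, at 62.1 CPM at E9, against 180 CPM at E7. The sublibraries gave 21.2 and 97.5 CPM at E9, against 191 and 169 CPM at E7, so that sublibrary 2 alone did not reach 2-fold, and 11 of the 19 UMIs at E9 were in 1 cell. The background GAD2 level was also lower, 36.5 CPM at E9, against 82.0 CPM at E7; its part in the difference was not tested. At E8 the 33 BARHL1-gated cells gave 329 CPM in sublibrary 1 and 89.4 CPM in sublibrary 2. In SKOR2-gated cells the levels were 27.2, 23.4, 25.9 and 16.1 CPM at E6 to E9, against 14.3, 13.0, 19.0 and 42.6 CPM in the background. The E6 value rested on sublibrary 2, with 42.4 CPM there and 11.01 CPM in sublibrary 1.

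For SLC17A6, PAX2-gated cells had 140 CPM (111 to 175), 40.7 CPM (35.7 to 46.3), 29.6 CPM (19.8 to 42.5) and 62.2 CPM (48.8 to 78.3) at the 4 stages from E6 to E9. The wells at E6 ranged from 120 to 181 CPM, and no well of a later stage exceeded 76.8 CPM. The E9 over E6 ratio was −1.17 (−1.66 to −0.69), with −0.74 and −1.60 in the sublibraries, and E9 over E8 was 1.07 (0.43 to 1.75), with 1.14 and 1.01. The background stood at 19.0 CPM at E8 and 42.6 CPM at E9, where 19 of its 21 UMIs were in sublibrary 1. At E6, 29 of 113 PAX2-gated cells had an SLC17A6 UMI, 25.7% unthinned and 12.4% (6.94 to 19.9) thinned, and before thinning 6 of these 29 also had a GAD UMI.

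The PAX2 gate at E6 divided along its own markers. TFAP2A and TFAP2B encode transcription factors of the inhibitory lineage. They were among the markers of the gate, and this split was chosen after seeing the data. A cell without a UMI of either needed one of LHX1, LHX5 or NXPH1 to enter the gate, and a cell with one did not. The sides of the split were therefore chosen by different markers. The 69 E6 cells with a UMI of either held 236 CPM of GAD1 (186 to 294), 293 CPM of GAD2 (238 to 358) and 99.8 CPM of SLC17A6 (68.7 to 140). The 44 cells with neither held 32.1 CPM of GAD1 (12.9 to 66.2), 36.7 CPM of GAD2 (15.9 to 72.4) and 202 CPM of SLC17A6 (147 to 271), at nearly the same median depth, 3333.5 against 3267 UMIs. In sublibraries 1 and 2 SLC17A6 stood at 49.0 and 181 CPM in the cells with a TFAP2 UMI and at 199 and 205 CPM in those without.

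At later stages the cells without a TFAP2 UMI had GAD2 as well. GAD2 stood at 557, 579 and 582 CPM at E7, E8 and E9 in the cells with a TFAP2 UMI and at 614, 578 and 371 CPM in those without. GAD1 stood at 290, 325 and 401 CPM with and 177, 233 and 172 CPM without, the same order in both sublibraries at each of these stages, with intervals that overlapped at E8. SLC17A6 stood at 38.3, 20.9 and 53.1 CPM with and 60.0, 60.6 and 95.7 CPM without; the intervals overlapped at all 3 stages, and sublibrary 2 had the reverse order at E7.

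**Figure D5:**
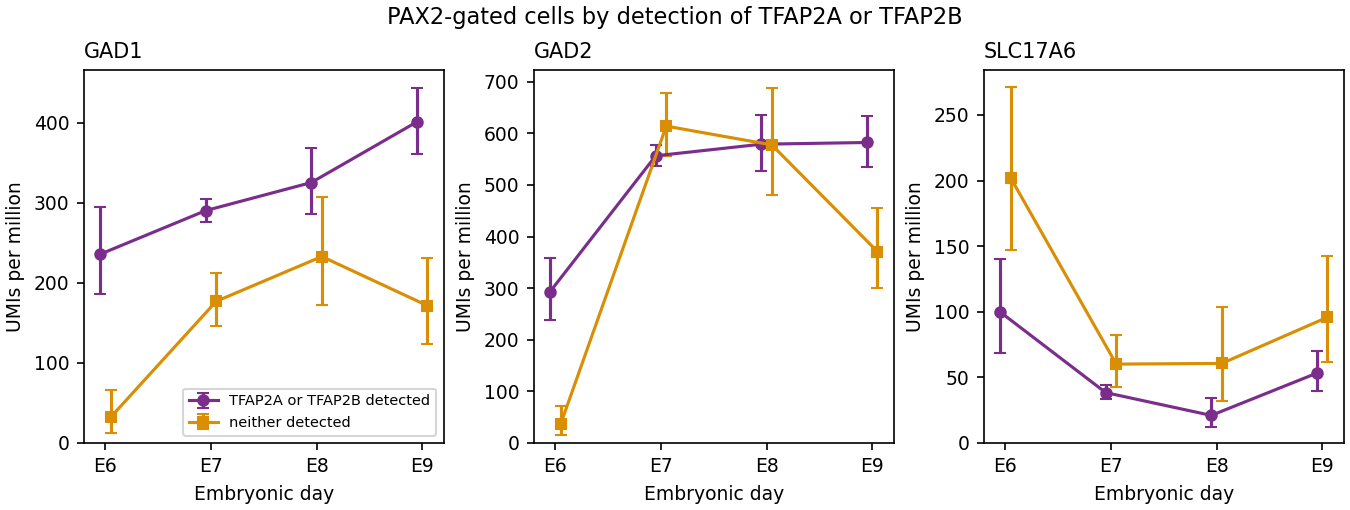
UMIs per 1000000 UMIs (vertical axes, linear) of GAD1, GAD2 and SLC17A6 in PAX2-gated cells with and without a UMI of TFAP2A or TFAP2B, at E6 to E9, with exact 95% Poisson intervals. At E6 the cells without are at 32.1 CPM of GAD1, 36.7 of GAD2 and 202 of SLC17A6, and from E7 on their GAD2 is 371 CPM or more.

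Over all stages together, markers of Purkinje subtypes divided the SKOR2 gate by under 2-fold in GAD1 and GAD2. Splits on NR2F2, CDH6 and PCDH10, a nuclear receptor, a cadherin and a protocadherin, were also chosen after seeing the data. GAD2 stood at 698 CPM (680 to 716) with NR2F2 and 885 CPM (870 to 901) without, at 822 and 812 CPM with and without CDH6, and at 877 (856 to 897) and 783 CPM (769 to 798) with and without PCDH10. Pooled over stages, GAD1 was lower in the cells with each marker, at 185, 169 and 155 CPM, against 208, 221 and 224 CPM without. By stage this did not hold for NR2F2 at E9, with 164 CPM in the cells with it and 140 CPM in those without, or for CDH6 at E8, with 123 and 120 CPM. Stage moved with the marker: 41 of the 811 cells with NR2F2 were from E6, against 484 of the 2273 without. Cells with NR2F2 or PCDH10 had medians of 7237 and 7345.5 UMIs, against 4964 and 5024 in those without, so detection of the marker and depth moved together.

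Within E6 the CDH6 split gave the 2 decarboxylase genes opposite signs. The 162 cells with CDH6 held 228 CPM of GAD1 (194 to 266) and 698 CPM of GAD2 (638 to 763), and the 363 cells without held 340 CPM of GAD1 (309 to 372) and 449 CPM of GAD2 (414 to 486). Both sublibraries had this order for both genes. For NR2F2 at E6, the 41 cells with it held 277 CPM of GAD2, with 125 and 405 CPM in the sublibraries, against 569 CPM in the cells without. SLC17A6 stood at 114 CPM in those 41 cells, from 28 UMIs that all came from sublibrary 2, against 15.4 CPM in the cells without NR2F2.

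The SOX2-gated radial cells, which are progenitors, had low levels of all 5 genes. Over all stages together, GAD1 stood there at 20.2 CPM (15.8 to 25.4) and GAD2 at 84.7 CPM (75.5 to 94.7). These were 1.38 (0.60 to 2.24) and 1.03 (0.69 to 1.38) above the background on the log2 scale. The stage mixes differed: E7 gave 285 of the 510 radial and 60 of the 185 background cells. As in the background, GAD2 was highest at E7, with 47.6, 103, 45.8 and 24.8 CPM at E6, E7, E8 and E9. The background stood at 14.3, 82.0, 10.1 and 36.5 CPM. At E8 the radial interval, 28.0 to 70.7 CPM, lay above that of the background, 4.37 to 19.9 CPM. At E7 the intervals overlapped, 90.6 to 116 CPM in radial and 63.0 to 105 CPM in background cells. They also overlapped at E6, 22.8 to 87.5 and 1.73 to 51.7 CPM, where radial cells were higher. At E9 radial cells were lower, with intervals of 11.3 to 47.1 and 21.6 to 57.7 CPM. SLC32A1 had 7 UMIs, SLC6A5 3 and SLC17A6 67, or 18.5 CPM.

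Other genes of transmitter metabolism and transport came from a list of 36, of which 32 had an entry under their symbol. Of these, 9 reached 50 CPM in a neuron gate. SLC1A2, a glutamate transporter, stood at 65.5 CPM in SKOR2-gated and 205 CPM in excitatory-gated cells, a log2 ratio of −1.65 (−1.78 to −1.51). The interval lay above 0 for 3 of the 9, among them the glutaminase gene GLS2 (0.30) and the glutamate transporter gene SLC1A3 (0.61). It lay below 0 for SLC1A2, SLC1A4, SLC38A1, ABAT and GLDC, and spanned 0 for SLC1A1. SLC1A4 reached 50 CPM only in the BARHL1 gate, at 73.4 CPM, against 39.4 CPM in SKOR2-gated cells. Its place among the lower genes is therefore partly set by the 50 CPM rule. No share of all genes with an interval off 0 is given beside these counts. The median of the 9 was −0.36, beside −0.05 over all genes.

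The other 23 listed genes with an entry stayed under 50 CPM in every neuron gate. Among them were the cholinergic genes CHAT at 49 UMIs and SLC18A3 at 14 UMIs in all cells, the monoamine genes TH at 33 and TPH2 at 300, and SLC17A8, another vesicular glutamate transporter, at 44. SLC6A9, the glial glycine transporter GlyT1, had 709 UMIs.

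The genes whose pattern was most like GAD1, GAD2, SLC32A1 and SLC17A6 were read across 16 groups of a type at a stage with 50 or more cells, as Pearson's r of log2 CPM; the groups share libraries and stages, and the values are descriptions. For GAD1 these were NRXN3, a presynaptic adhesion gene (r = 0.95), the glutamate receptor gene GRIA3 (0.936), SUSD4 (0.931) and SKOR1 (0.926), with 1 unnamed gene between them. For GAD2 they were GRIA3 (0.953), SESN3 (0.944) and NRXN3 (0.929), with 2 unnamed genes. For SLC32A1 they included KIF26A (0.897), GAD1 (0.890), GFRA4 (0.890) and RALGAPA1 (0.883). GAD1 and GAD2 had r = 0.924 with each other, and GAD2 and SLC32A1 0.815. The nearest to SLC17A6 were GSE1 (0.902), NRN1 (0.897) and GPR149 (0.884). For SLC6A5, with 118 UMIs in all, none are given.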

How the data were processed

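The authors deposited UMI counts per cell and gene for the whole series, with a cell table and a gene table; unit and layout are per the file headers. The submitters' processing notes name Cell Ranger, Seurat and GRCg7b without their roles, and the sources used here do not give the aligner, the cell-calling rule or the strand setting. Sublibrary and well were read from the barcode and stage from the cell table.

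Levels are summed UMI counts per 1000000 UMIs of the gated cells (CPM), with exact 95% Poisson intervals. Shares were taken after drawing 1000 UMIs per cell, with exact binomial (Clopper-Pearson) intervals. Log2 ratios have exact intervals from the binomial split of the UMIs. A count of 0 allows up to 3. Ratios use Python 3.11.15, numpy 2.4.6, scipy 1.17.1 and pandas 2.3.3. Simulated counts were used to test the count of genes past a fold, the Poisson interval and the search for nearest genes. Types needed 50 cells and stage groups 30, the latter set after seeing the data; the background by stage (19 to 60 cells) is given as an exception.

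The genes, marker lists and pathway list were chosen with earlier results of these data known. Named genes are the 5 members, listed pathway genes of 50 CPM or more in a neuron gate, and the 5 nearest genes by r among those with 500 or more UMIs, on log2(CPM + 5); unnamed identifiers were counted. Pathway genes under 50 CPM were named after their values were seen. SLC17A7, SHMT2 and SLC6A3 were not analysed here, and some listed genes are not reported here. Doublets were not called.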

Additional observations from a re-analysis of the deposited data

Results flagged for a closer look

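A difference between cell types was flagged. The E9 over E6 change of GAD1 had the same sign in both sublibraries within a gate and opposite signs in the PAX2 and SKOR2 gates. On the log2 scale it was 1.24 and 1.14 in PAX2-gated cells and −0.70 and −1.28 in SKOR2-gated cells. The pooled changes differed by 2.18. SKOR2-gated cells made up 21.1% of all cells at E6 and 4.35% at E9, and the part of this shift was not tested. In PAX2-gated cells the make-up of the gate moved with stage: 63 of 289 cells at E9 had no UMI of TFAP2A or TFAP2B, against 44 of 113 at E6, and in the cells with such a UMI GAD1 stood at 401 CPM at E9, against 236 CPM at E6; the part of this mix was not tested. The difference was not tested, because the sublibraries are technical splits of the same pools. Of the 4 genes with UMIs in every sublibrary at both stages, GAD1 was the 1 with this pattern. No share over all genes is given for it, so the values here do not tell how common the pattern is, or whether 1 of 4 is unusual. The groups of 2 sublibraries were too small for a search for outlying samples.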

How the results depend on the processing

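The 10 ratios were recomputed under 112 alternatives, of which 105 kept the sign; 86 stayed inside the counting interval and none of the ratios whose interval excluded 0 changed sign. With cells of another anchor kept, the log2 ratios were 0.87 for GAD1, 0.97 for GAD2 and 1.13 for SLC32A1 (SKOR2 over excitatory), 2.13 for SLC17A6 (excitatory over SKOR2) and 0.55 for SLC17A6 (E9 over E7, BARHL1 gate). With gates read from thinned counts they were 2.44 for GAD1, 2.55 for GAD2, 4.18 for SLC17A6, 2.49 for SLC6A5 (PAX2 over SKOR2), −0.51 for GAD1 and 0.66 for SLC32A1 (both E9 over E6, SKOR2 gate). The mean of single-cell CPM gave 3.33 for GAD2 and 4.59 for SLC17A6, and 3 markers gave 4.02 for SLC17A6 and 0.74 for GAD2 E9 over E6. Without cells above the 95th percentile of UMIs SLC17A6 was 4.19. Of alternatives chosen after seeing the data, dropping markers found in over 50% of cells gave 0.76 for GAD2 E9 over E6, and leaving out E7 gave 4.48 for GAD1 and 3.61 for GAD2. The causes were not tested.

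Leaving out a sublibrary gave 2.44 to 3.85 for GAD1, 2.45 to 3.19 for GAD2, −1.15 to 1.80 for SLC6A5 and 0.18 to 0.56 for GAD2 E9 over E6. SLC6A5 E9 over E7 had no value without either sublibrary, since 1 stage then had 0 UMIs. Thinning to 2000 UMIs gave shares of 69.0% (GAD2) and 33.8% (GAD1) in SKOR2-gated, 53.0% (GAD2) in PAX2-gated and 44.1% (SLC17A6) in excitatory-gated cells. No paired analysis was possible because the 2 sublibraries belong to 1 group. SLC6A5 and the stage values of SLC32A1 are limited by depth.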
